A study of Mus musculus with 20 samples.

Results

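Efferocytosis is the engulfment of apoptotic cells, and 9 genes of its receptor machinery were followed here through macrophages exposed to glucose or to exosomes. The genes were chosen by symbol: the receptors Mertk, Axl, Tyro3 and Lrp1, the bridging molecules Gas6, Pros1 and Mfge8, and the engulfment signalling genes Elmo1 and Dock1. Of these, 8 were among the 14456 genes with values, all 8 passed the filter on low values in every fit, and Tyro3 was not analysed here. The cells were bone marrow-derived macrophages (BMDM) of male C57BL/6J mice aged 8 to 12 weeks, grown for 6 days with 25 ng/ml of the growth factor M-CSF. The glucose experiment exposed BMDM for 24 h to high glucose, at 25 mM (4 libraries), or to normal glucose, at 5.5 mM plus 19.5 mM mannitol, a sugar alcohol that evens out the osmotic load (4 libraries). In the exosome experiment, naive BMDM received PBS (n = 4), exosomes shed by BMDM in normal glucose (BMDM-NG-exo, n = 4) or exosomes shed by BMDM in high glucose (BMDM-HG-exo, n = 4) for 24 h, at 2000000000 particles per ml. The glucose level of the medium in the exosome experiment is not given in the sources used here. The labels name no transgene or deletion in any group, and cells grown with M-CSF in culture are a model of macrophages without the other cells of a tissue.

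Apoptotic cells expose phosphatidylserine on their surface. Gas6 and protein S, the product of Pros1, bind this lipid and link it to the TAM receptor tyrosine kinases, which are Tyro3, Axl and MerTK. Protein S and Gas6 both activate MerTK, whereas Axl responds to Gas6. MFG-E8, the product of Mfge8, bridges the same lipid to the integrins αvβ3 and αvβ5, and LRP1 takes up cells marked by calreticulin or C1q. Several of these receptors signal through ELMO1 and DOCK1 (DOCK180), which together activate the GTPase Rac and so rearrange actin around the engulfed cell. In macrophages of atherosclerotic lesions, loss of MerTK or MFG-E8 is known to leave dead cells uncleared.

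Between 34016445 and 56310712 reads lay behind a library, and between 873 and 164431 reads behind a value of a member. At the fewest reads, counting error alone was 3.38% of the value. The coefficient of variation between the 4 libraries of a group ran from 1.10% to 9.69% over the 40 combinations of member and group (median 4.65%). The labelled cell type was borne out by its markers: all 9 macrophage markers had values, and the 6 dendritic, 6 lymphoid, 4 mast cell and 5 erythroid markers looked for were not among the genes analysed. The 8 stromal markers with values, of 12, summed to between 237 and 510 normalized counts in a library, and the 5 neutrophil markers, of 8, to between 165 and 378. The labels do not say whether the libraries of a glucose group came from separate mice, so p-values there measure the spread between these libraries.

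Levels can be compared between genes only per length, so normalized counts were divided by the length of all annotated exons of the gene in kb (GENCODE M21, GRCm38). Lrp1, with 17.72 kb of exons on chr10:127538161-127621148 (minus strand, ENSMUSG00000040249), led in all 5 groups. Its group means ran from 6334 ± 451 normalized counts per exonic kb in normal glucose (SD, n = 4) to 7733 ± 320 with BMDM-HG-exo (SD, n = 4). By its unscaled mean of 125903 normalized counts it stood at rank 21 of all 14456 genes. Gas6 followed, with 2.55 kb of exons on chr8:13465374-13494490 (minus strand, ENSMUSG00000031451), at 5802 ± 314 per exonic kb in normal glucose and 6991 ± 133 with BMDM-NG-exo. The ranges of Lrp1 and Gas6 overlapped in normal glucose and with BMDM-NG-exo, and did not overlap in the other 3 groups.

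Mertk and Axl came next, at similar levels, and their order was not the same in all groups. Mertk has 4.34 kb of exons on chr2:128698956-128802894 (plus strand, ENSMUSG00000014361), and Axl 5.03 kb on chr7:25757273-25788705 (minus strand, ENSMUSG00000002602). In normal glucose Mertk stood at 1554 ± 51.8 and Axl at 1183 ± 74.8 normalized counts per exonic kb, with Mertk higher in each of the 4 libraries. In high glucose the order was the opposite, at 1179 ± 60.9 for Mertk and 1296 ± 57.0 for Axl, with Axl higher in each of the 4 libraries. In the PBS group their ranges overlapped and each was the higher in 2 libraries.

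The ratio of Axl to Mertk per exonic kb summed up this pattern and was chosen after its values were seen, so it is given without a test. It was 0.860, 0.731, 0.761 and 0.700 for normal glucose. For high glucose it was 1.07, 1.02, 1.06 and 1.25, so the groups did not overlap. In the exosome experiment it was 1.14, 0.944, 0.916 and 1.08 with PBS. With BMDM-NG-exo it was 0.876, 0.775, 0.734 and 0.888, below every PBS library, and with BMDM-HG-exo it was 0.954, 0.794, 0.780 and 0.865, where the highest library reached into the PBS range. Which gene of the pair is the higher rests on the exon lengths used, whereas the difference in ratio between groups does not.

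**Figure D1:**
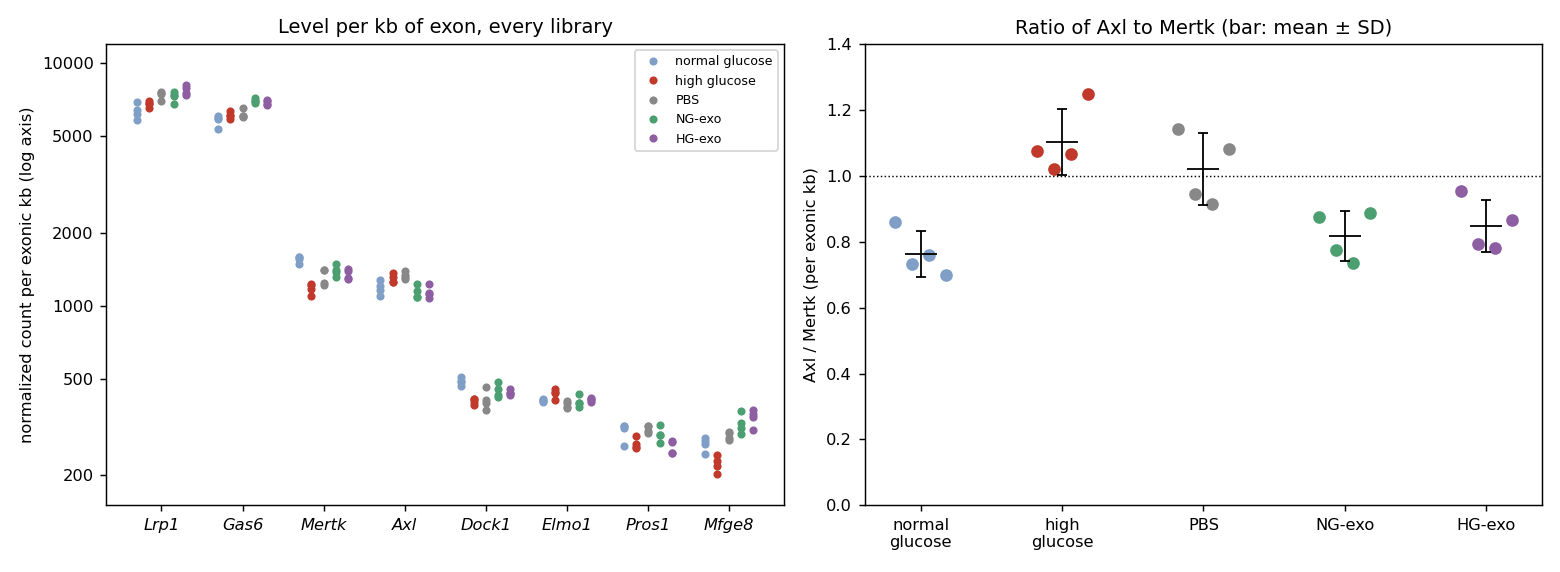
The left panel plots the normalized count per exonic kb of the 8 genes on a log axis, with 1 point per library coloured by group. The right panel plots the ratio of Axl to Mertk in each library with the mean ± SD of each group, and all 4 libraries in high glucose lie above 1 while all 4 in normal glucose lie below it.

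The last 4 genes were lower and lay close together. Here too, which gene of a pair is the higher rests on the exon lengths used. Dock1 (9.33 kb of exons, chr7:134670654-135173639, plus strand, ENSMUSG00000058325) exceeded Elmo1 (12.58 kb, chr13:20090596-20608353, plus strand, ENSMUSG00000041112) in normal glucose, at 487 ± 18.5 against 406 ± 4.45 per exonic kb, and in all 4 libraries there. In high glucose Elmo1 was the higher, at 434 ± 19.6 against 404 ± 10.8, in ranges that overlapped. Pros1 (4.09 kb, chr16:62854307-62929346, plus strand, ENSMUSG00000022912) and Mfge8 (4.69 kb, chr7:79133768-79149060, minus strand, ENSMUSG00000030605) closed the order. Pros1 exceeded Mfge8 in the glucose groups and with PBS (309 ± 11.0 against 291 ± 10.3 per exonic kb), and Mfge8 exceeded Pros1 with BMDM-HG-exo (346 ± 27.6 against 261 ± 17.6), without overlap.

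High glucose was compared with normal glucose to ask how the metabolic exposure itself moved these genes. In high glucose Mertk fell by 24.2%, Dock1 fell by 16.9% and Mfge8 fell by 17.3%, and for these 3 genes no library in high glucose reached the lowest library in normal glucose (7.11% of all genes tested were separated in that direction). Axl was slightly higher, and Gas6, Pros1, Lrp1 and Elmo1 did not pass the test. Thus 4 of the 8 members were called in a comparison in which 13.3% of all genes tested were called (7.74% higher, 5.53% lower), by limma, at a Benjamini-Hochberg adjusted p-value under 0.05 over 14425 genes. In bulk libraries such as these, fewer cells of a type and less RNA per cell cannot be told apart.

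Among the receptors, Mertk stood at 6409, 6895, 6868 and 6776 normalized counts in normal glucose and at 5314, 5293, 5099 and 4745 in high glucose. The gap between the groups was wider than the spread within either. Its log2 fold change was -0.40 (SE 0.0422, limma adjusted p = 7.85e-09), which ranked 70 among the p-values of all genes tested. Axl, the other TAM kinase measured, stood at 6401, 5852, 6067 and 5505 in normal glucose and at 6627, 6281, 6302 and 6882 in high glucose. The highest library in normal glucose lay above the lowest 2 in high glucose. Its log2 fold change was 0.13 (SE 0.0439, limma adjusted p = 0.0394), and the call was lost on leaving out any of the normal glucose libraries 3, 5 or 6 or the high glucose libraries 1 or 6 (adjusted p between 0.0606 and 0.180). It was kept in 9 of the 12 other settings, and lost when the variance was not allowed to depend on the mean (limma adjusted p = 0.252), after quantile scaling and under a fold limit of 0.15. Lrp1 ranged from 103567 to 122585 in normal glucose and from 115692 to 123337 in high glucose, with a log2 fold change of 0.10 (95% interval 0.02 to 0.18, limma adjusted p = 0.0700). Without normal glucose library 1, the highest of its group, the log2 fold change of Lrp1 was 0.14 (limma adjusted p = 0.00218).

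Of the bridging molecules, Mfge8 stood at 1300, 1149, 1265 and 1336 normalized counts in normal glucose and at 1023, 1070, 1132 and 950 in high glucose. The nearest libraries of the groups were close, but did not cross. Its log2 fold change was -0.27 (SE 0.0690, limma adjusted p = 0.00523). Gas6, the ligand of Axl and MerTK, ranged from 13601 to 15364 in normal glucose and from 15050 to 16171 in high glucose, with a log2 fold change of 0.07 (95% interval -0.00 to 0.15, limma adjusted p = 0.214). Pros1 stood at 1285, 1300, 1074 and 1300 in normal glucose and at 1097, 1069, 1191 and 1061 in high glucose. A single library in normal glucose, number 5, lay within the range in high glucose, and the other three lay above it. The log2 fold change of Pros1 was -0.16 (95% interval -0.31 to -0.02, limma adjusted p = 0.124), and without that library it was -0.23 (adjusted p = 0.0293).

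The signalling pair differed from each other. Dock1, the Rac activator, stood at 4571, 4758, 4341 and 4504 normalized counts in normal glucose and at 3753, 3846, 3854 and 3639 in high glucose. All libraries in high glucose lay below all in normal glucose, with a log2 fold change of -0.27 (SE 0.0433, limma adjusted p = 2.25e-05). Elmo1, its adaptor, stood at 5066, 5168, 5055 and 5143 in normal glucose and at 5122, 5479, 5712 and 5531 in high glucose. Its log2 fold change was 0.10 (95% interval 0.01 to 0.18, limma adjusted p = 0.131), and 3 of the 4 libraries in high glucose lay above the range in normal glucose. The calls of Mertk and Dock1 were kept under each of the 12 other settings tried and with each library left out, whereas that of Mfge8 was lost when the variance was not allowed to depend on the mean (limma adjusted p = 0.0803).

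**Figure D2:**
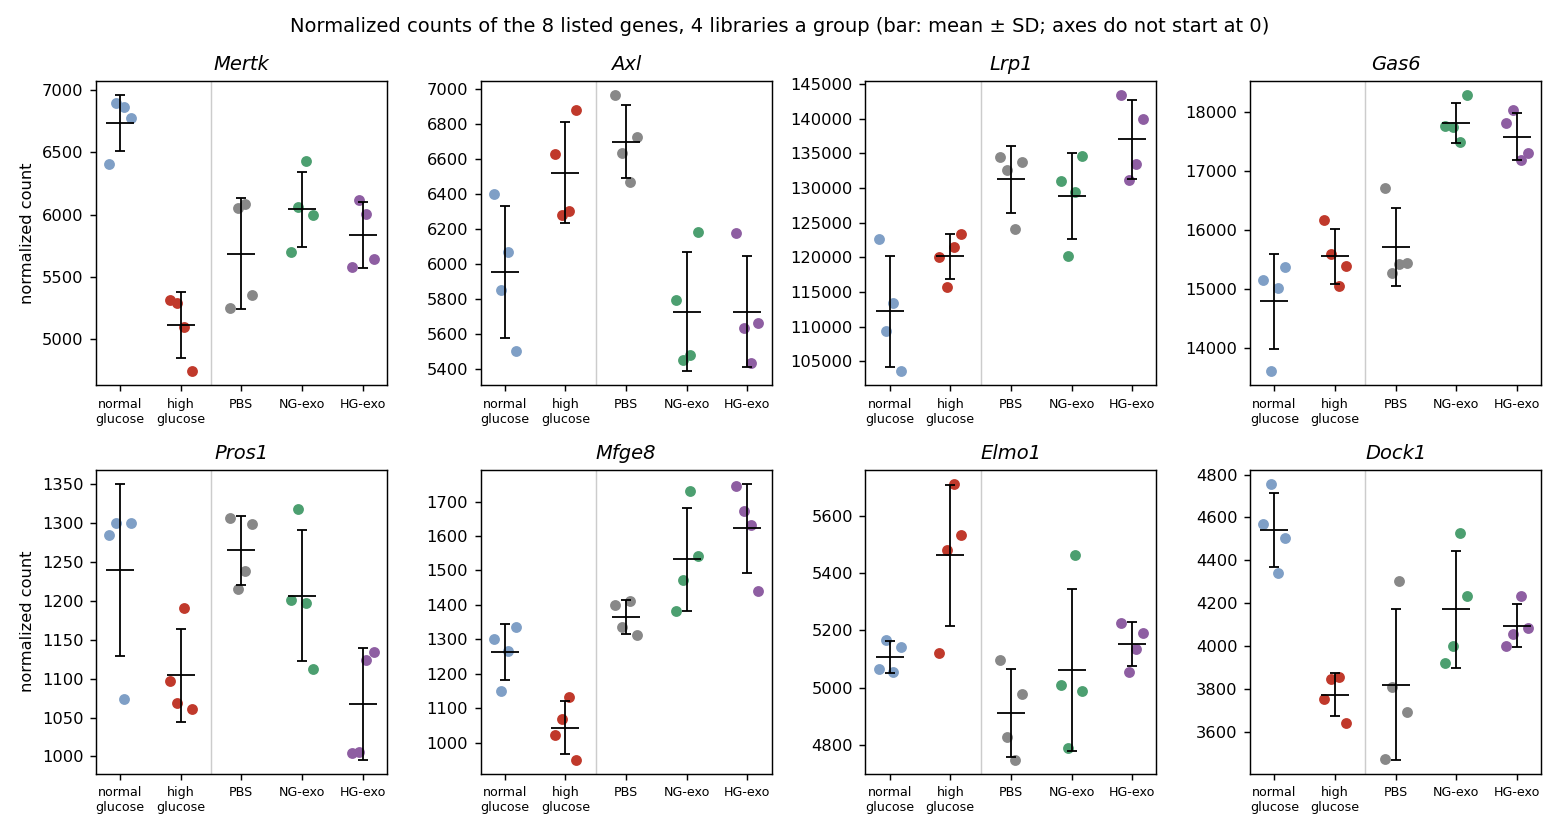
Each panel plots the normalized counts of 1 gene, with 1 point per library and a bar for the mean ± SD of the 4 libraries of a group, on axes that do not start at 0. Mertk, Mfge8 and Dock1 separate the glucose groups without overlap, and Axl and Gas6 separate PBS from both kinds of exosomes.

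Markers of the cells moved with this comparison as well. The 9 macrophage markers summed to between 641644 and 717299 normalized counts in normal glucose and to between 822327 and 892502 in high glucose, most of which was the lysozyme gene Lyz2. Of the 9, 5 were called higher (Lyz2, Csf1r, Cd14, Spi1 and Adgre1) and 2 lower (Mrc1 by 0.47 and Cd68 by 0.15 on the log2 scale). Of all genes tested, 7.74% were called higher and 5.53% lower. Stromal markers summed to between 237 and 410 in normal glucose and to between 287 and 498 in high glucose, and neutrophil markers to between 254 and 378 and between 211 and 258, with none of either list called. The part of these markers in the changes of the members was not tested.

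Mertk, Mfge8 and Dock1 fell together in high glucose, and their promoters are shown as RefSeq gives them for GRCm38.p6. Each run spans 200 bases, from 250 to 51 bases before the annotated start, 5′ to 3′ on the strand of the gene. Capitals mark matches, on either strand, to GGGCGG (the GC box bound by Sp1-like factors, which reads CCGCCC on the other strand) or GAGGAA (a core of sites of the macrophage factor PU.1).
Mertk, chr2:128698665-128698864, plus strand: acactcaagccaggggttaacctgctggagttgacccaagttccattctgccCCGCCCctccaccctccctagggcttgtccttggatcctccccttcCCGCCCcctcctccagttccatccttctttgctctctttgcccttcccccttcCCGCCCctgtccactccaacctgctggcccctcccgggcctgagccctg
Mfge8, chr7:79149111-79149310, minus strand: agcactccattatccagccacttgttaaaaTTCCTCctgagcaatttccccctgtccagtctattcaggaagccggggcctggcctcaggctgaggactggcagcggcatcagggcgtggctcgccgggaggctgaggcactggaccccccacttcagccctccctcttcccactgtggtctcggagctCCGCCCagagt
Dock1, chr7:134670437-134670636, plus strand: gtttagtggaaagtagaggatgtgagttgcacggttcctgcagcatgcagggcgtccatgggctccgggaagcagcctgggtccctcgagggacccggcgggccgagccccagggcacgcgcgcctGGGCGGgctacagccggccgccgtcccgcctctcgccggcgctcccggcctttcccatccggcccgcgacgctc

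The GC box occurred at 3 places in the Mertk run and at 1 place each in those of Mfge8 and Dock1, and 24.6% of all 32851 promoter runs of this length held at least 1. It was not particular to the genes that fell. An Elmo1 run held it at 3 places, and those of Lrp1, Pros1 and Gas6 at 1 place each. The runs of Mertk, Mfge8 and Dock1 held 64%, 62% and 72.5% of G and C, against a median of 51.5% over all runs. GAGGAA occurred in the Mfge8 run, and in 18.8% of all runs. The other motifs searched were TGANTCA (AP-1), AGGTCA (nuclear receptors) and TGCTGAC (MAF factors), which occurred in 5.57%, 11.4% and 2.95% of all runs and had no match in these letters of Mertk, Mfge8 or Dock1. A match describes the letters only.

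The wider pathway was read from lists that do not include the members. Among 13 other engulfment receptors with values (of 17), 4 were called lower and 2 higher in high glucose, where 5.53% and 7.74% of all genes tested were. Itgb3, the β3 partner in the integrin that recognises MFG-E8, fell by 0.68 on the log2 scale (limma adjusted p = 5.36e-05), from 393 ± 19.3 normalized counts in normal glucose (SD, n = 4) to 245 ± 15.9. Itgav, the αv chain, rose by 0.20 (limma adjusted p = 0.00021). Cd300lf and Havcr2 (TIM-3), both phosphatidylserine receptors, fell by 0.50 and 0.24, and Cd300lb rose by 0.16. Stab2 fell by 1.34 (limma adjusted p = 0.00463), at a low level of 61.9 ± 7.54 against 25.3 ± 10.7 normalized counts. Both the ligand Mfge8 and 1 chain of its αvβ3 receptor fell, while the other chain rose. Itgb5, the β chain of its αvβ5 receptor, was not called, with a log2 fold change of -0.05 (limma adjusted p = 0.342). Its values were 16171 ± 509 normalized counts in normal glucose and 15580 ± 296 in high glucose (SD, n = 4 each).

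Of 9 other bridging molecules and ligands with values (of 11), 2 were called higher and 1 lower. Thbs1 (thrombospondin-1, which links dying cells to CD36 and αvβ3) fell by 0.57 (limma adjusted p = 1.05e-05), whereas Calr (calreticulin) and Lgals3 (galectin-3, a ligand of MerTK) rose by 0.16 and 0.21. Of 15 other signalling genes (of 16), 8 were called higher and none lower, where 7.74% and 5.53% of all genes tested were. The median log2 fold change of the 15 was 0.12, against -0.003 over all genes tested. The 8 included the DOCK paralogs Dock2 (0.13), Dock4 (0.20) and Dock5 (0.20), opposite in sign to Dock1. They also included the Rac gene Rac2, which rose by 0.35 (limma adjusted p = 8.27e-08). Dock2 stood at 30836 ± 588 normalized counts in normal glucose, and at 33805 ± 634 in high glucose (SD, n = 4 each). The ELMO paralogs Elmo2 and Elmo3 had log2 fold changes of 0.11 (limma adjusted p = 0.127) and 0.03 (0.962).

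Of 7 genes of receptor shedding and restraint, Adam17, the protease known to cleave MerTK from the cell surface, rose by 0.16 (limma adjusted p = 0.00136). Its values were 11723 ± 362 normalized counts in normal glucose and 13095 ± 288 in high glucose (SD, n = 4 each). Of 8 nuclear receptors and transcription factors, Maf fell by 0.18 (limma adjusted p = 0.000324) and the other 7, the LXR genes Nr1h2 and Nr1h3 among them, did not pass. Of 9 genes of phagosome handling, Abca7, Rab7 and Abcg1 rose by 0.47, 0.16 and 0.13, and Abca1 and Ucp2 fell by 0.17 and 0.10.

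**Figure D3:**
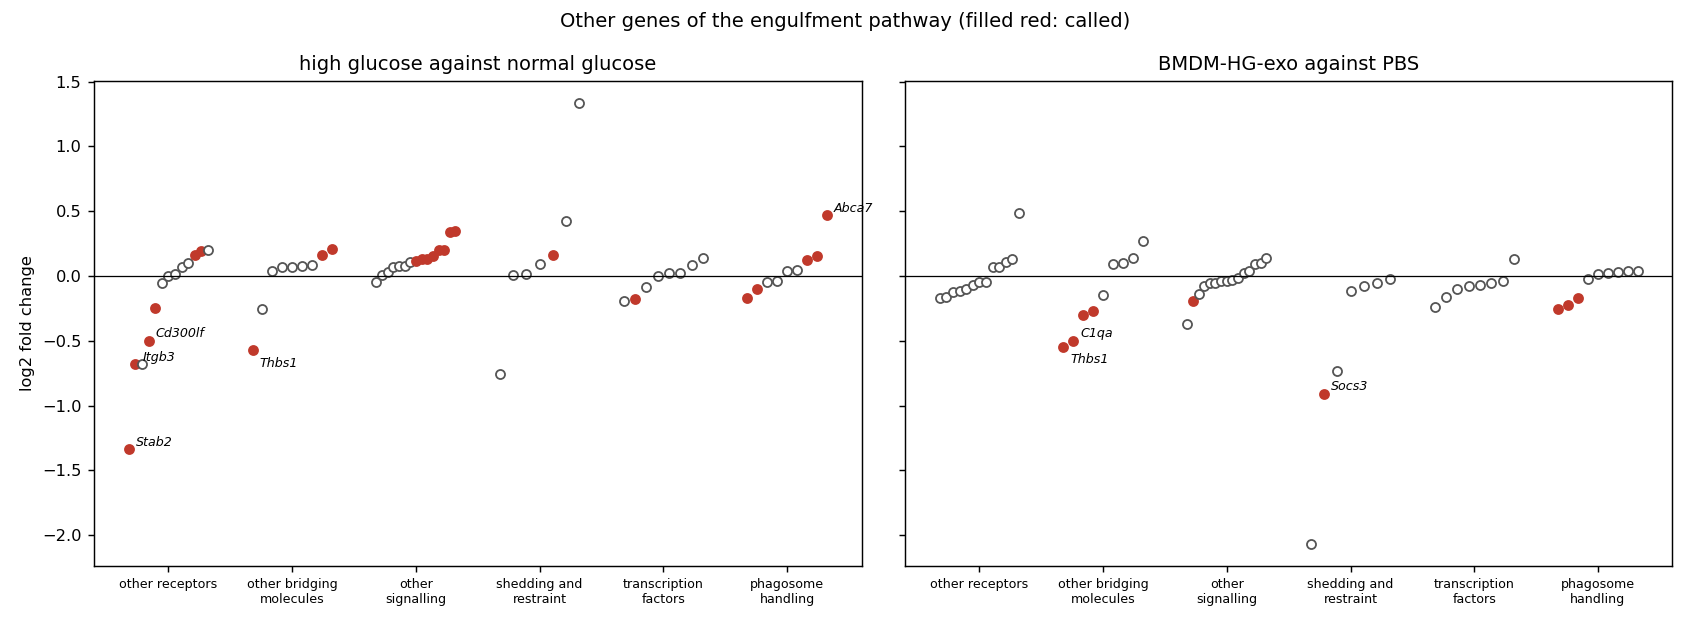
Each point is the log2 fold change of 1 other gene of the engulfment pathway, in 6 lists, for high against normal glucose (left) and BMDM-HG-exo against PBS (right), filled red where called (adjusted p under 0.05, and on the right also a log2 fold change of at least 0.15 in size). The 8 called signalling genes on the left all lie above 0, and the called genes on the right lie below 0, where Lgals3 (0.14) and Cd36 (0.13) are unfilled because of the fold limit alone.

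The exosome experiment asked whether macrophage exosomes altered naive BMDM. Both kinds of exosomes were followed by a lower Axl and a higher Gas6 than PBS, whereas Mertk and Dock1 were not called. With BMDM-HG-exo, Pros1 was also lower and Mfge8 also higher. Calls here also needed a log2 fold change of 0.15 or more in size. With BMDM-NG-exo, 1 member was called higher and 1 lower, where 0.888% of all genes tested were called higher and 2.11% lower. With BMDM-HG-exo, 2 were called higher and 2 lower, where 1.76% and 3.08% of all genes were. Both comparisons share the same 4 PBS libraries, so their values are given side by side and are not independent of each other.

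Axl stood at 6968, 6637, 6471 and 6728 normalized counts with PBS. With BMDM-NG-exo it was 5794, 5453, 5480 and 6183, and with BMDM-HG-exo 6178, 5634, 5437 and 5662. No exosome library reached the lowest PBS library, a separation seen for 4.63% of all genes with BMDM-NG-exo and 5.59% with BMDM-HG-exo. The log2 fold change against PBS was -0.23 for both BMDM-NG-exo (SE 0.0443, limma adjusted p = 0.00104) and BMDM-HG-exo (SE 0.0443, limma adjusted p = 0.000664). The libraries carry the same 4 dates in each group, and Axl was lower on all 4 dates, by between 0.12 and 0.28 with BMDM-NG-exo and between 0.17 and 0.25 with BMDM-HG-exo on the log2 scale.

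Gas6 stood at 16700, 15264, 15413 and 15443 normalized counts with PBS, where the first library lay apart from the other three. It was 17751, 17737, 17477 and 18285 with BMDM-NG-exo and 17802, 18020, 17185 and 17300 with BMDM-HG-exo. Every exosome library lay above every PBS library, as did those of 3.64% of all genes with BMDM-NG-exo and 4.41% with BMDM-HG-exo. The log2 fold change was 0.18 with BMDM-NG-exo (SE 0.0333, limma adjusted p = 0.000489) and 0.16 with BMDM-HG-exo (SE 0.0333, limma adjusted p = 0.00115). Gas6 was higher on all 4 dates in both, by between 0.09 and 0.24, and without PBS library 2, the lowest of its group, the change with BMDM-HG-exo fell just short of the 0.15 limit.

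Pros1 stood at 1307, 1215, 1238 and 1298 normalized counts with PBS, at 1200, 1318, 1197 and 1112 with BMDM-NG-exo, and at 1004, 1006, 1124 and 1134 with BMDM-HG-exo. The BMDM-HG-exo libraries lay below all PBS libraries, while 1 BMDM-NG-exo library lay above the PBS range and the other three below it. The log2 fold change was -0.25 with BMDM-HG-exo (SE 0.0688, limma adjusted p = 0.0242) and -0.07 with BMDM-NG-exo (95% interval -0.21 to 0.07, limma adjusted p = 0.743). The call was lost without PBS library 1 or 4 or BMDM-HG-exo library 1 or 2 (adjusted p between 0.0709 and 0.0976).

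Mfge8 stood at 1401, 1335, 1412 and 1313 normalized counts with PBS, at 1381, 1473, 1732 and 1543 with BMDM-NG-exo, and at 1745, 1673, 1632 and 1441 with BMDM-HG-exo. Only 1 BMDM-NG-exo library lay within the PBS range, and no BMDM-HG-exo library did. Its log2 fold change was 0.25 with BMDM-HG-exo (SE 0.0681, limma adjusted p = 0.0224) and 0.16 with BMDM-NG-exo (95% interval 0.02 to 0.30, limma adjusted p = 0.256). That call was lost without PBS library 2 or 4 or BMDM-HG-exo library 1, 2 or 3 (adjusted p between 0.0601 and 0.0972). When the variance was not allowed to depend on the mean, none of these exosome calls held, with adjusted p-values between 0.0676 and 0.151.

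The other 4 members were not called. Mertk stood at 5254, 6057, 6088 and 5356 normalized counts with PBS, at 5697, 6059, 6429 and 5996 with BMDM-NG-exo, and at 5581, 6115, 6005 and 5642 with BMDM-HG-exo, in overlapping ranges. The 95% interval of its log2 fold change was -0.01 to 0.19 with BMDM-NG-exo and -0.06 to 0.14 with BMDM-HG-exo. Dock1 stood at 3475, 3810, 4303 and 3691 normalized counts with PBS, at 3922, 4001, 4529 and 4232 with BMDM-NG-exo, and at 4002, 4055, 4235 and 4084 with BMDM-HG-exo, again in overlapping ranges, with log2 fold changes of 0.13 (limma adjusted p = 0.236) and 0.10 (0.313). Without PBS library 3, the highest of its group, Dock1 passed both limits, at 0.19 (limma adjusted p = 0.0289) and 0.16 (0.0485). Library 3 was also the highest for Dock1 with either kind of exosomes, so that fit leaves its date unpaired. By date, Dock1 was higher than with PBS on 4 of 4 dates with BMDM-NG-exo (0.07 to 0.20) and on 3 of 4 with BMDM-HG-exo (-0.02 to 0.20). Mertk was higher on 4 of 4 dates (0.0007 to 0.16) and on 3 of 4 (-0.02 to 0.09). For Lrp1 and Elmo1 the log2 fold changes against PBS ran from -0.03 to 0.07, with Elmo1 between 4748 and 5461 normalized counts over all 12 libraries.

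For comparison with the genes above, the promoter runs of the oppositely moving pair Axl and Gas6 are given from the same source, with the same capitals.
Axl, chr7:25788784-25788983, minus strand: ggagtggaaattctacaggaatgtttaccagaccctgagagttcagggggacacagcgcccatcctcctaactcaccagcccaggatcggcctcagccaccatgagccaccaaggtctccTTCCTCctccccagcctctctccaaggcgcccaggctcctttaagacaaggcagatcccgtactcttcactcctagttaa
Gas6, chr8:13494586-13494785, minus strand: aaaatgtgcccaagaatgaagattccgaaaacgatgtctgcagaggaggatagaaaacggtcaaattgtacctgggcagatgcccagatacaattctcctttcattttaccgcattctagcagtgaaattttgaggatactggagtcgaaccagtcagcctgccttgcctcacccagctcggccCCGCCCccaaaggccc

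Axl held GAGGAA at 1 place, on the opposite strand as TTCCTC, and no GC box in these letters. Gas6 held the GC box at 1 place and no GAGGAA.

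Macrophage markers also moved with the exosomes. Their sum was between 807371 and 854460 normalized counts with PBS, between 729635 and 786246 with BMDM-NG-exo and between 746720 and 770978 with BMDM-HG-exo. Of the 9 markers, 5 were called lower with BMDM-NG-exo and 6 with BMDM-HG-exo, led by Fcgr1 (0.41 and 0.60 lower on the log2 scale). Of all genes tested, 2.11% and 3.08% were called lower. No marker was called higher, though Mrc1 and Cd68 had log2 fold changes of 0.15 and 0.10 with BMDM-NG-exo. Stromal markers summed to between 242 and 510 with PBS and between 240 and 464 with exosomes. Neutrophil markers summed to between 208 and 298 with PBS and between 165 and 312 with exosomes. The part of these markers in the members' changes was not tested.

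In the wider pathway, C1q, a bridge from apoptotic cells to LRP1 and other receptors, fell with both kinds of exosomes. C1qa fell by 0.37 with BMDM-NG-exo (limma adjusted p = 5.10e-07) and by 0.50 with BMDM-HG-exo (limma adjusted p = 5.27e-10), from 10038 ± 354 normalized counts with PBS to 7787 ± 372 and 7112 ± 518 (SD, n = 4 each). C1qb fell by 0.31 and 0.30, and C1qc fell by 0.27 with BMDM-HG-exo. With BMDM-NG-exo, C1qc and the uncoupling protein gene Ucp2 each had a log2 fold change of -0.15, with limma adjusted p-values of 0.0163 and 0.00548, and missed the call by the fold limit alone. The lipid transporters Abca1 and Abca7 fell by 0.16 and 0.23 with BMDM-NG-exo and by 0.26 and 0.17 with BMDM-HG-exo. With BMDM-HG-exo, Thbs1 fell by 0.54, Ucp2 by 0.23, the GTPase gene Rhog by 0.19 and Socs3, an inhibitor of cytokine signalling, by 0.91. With BMDM-HG-exo, 4 further list genes had an adjusted p-value under 0.05 but stayed under the fold limit, with log2 fold changes of 0.14 for Lgals3, 0.13 for Cd36, -0.15 for Calr and -0.12 for Stab1. No other engulfment receptor or linked transcription factor of the lists was called against PBS, of 13 and 8 tested.

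**Figure D4:**
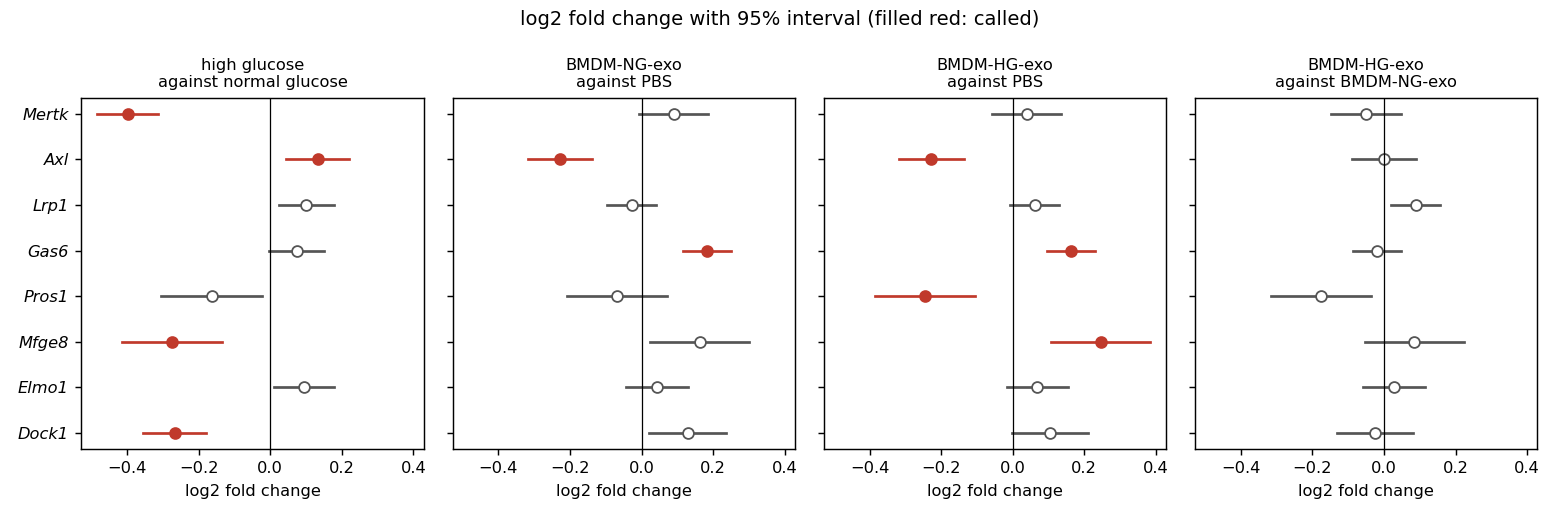
Points are log2 fold changes of the 8 genes with 95% intervals as lines, in 4 comparisons that each have a panel, filled red where called. Mertk lies at -0.40 in the glucose panel and near 0 in the exosome panels, and no gene is called where the kinds of exosomes are set against each other.

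The comparison of BMDM-HG-exo with BMDM-NG-exo addresses the glucose history of the cells that shed the exosomes, and uses the same exosome libraries as above. No member was called by limma, where 0.0139% of all genes tested were, and none was called by edgeR or DESeq2. Unadjusted p-values were under 0.05 for 2 members and for 6.54% of all genes tested. Lrp1 stood at 131073, 120259, 129420 and 134694 normalized counts with BMDM-NG-exo and at 143455, 131175, 133477 and 139938 with BMDM-HG-exo, in ranges that overlapped. It was higher with BMDM-HG-exo on all 4 dates, by between 0.04 and 0.13, with a log2 fold change of 0.09 (95% interval 0.02 to 0.16, limma adjusted p = 0.621). Pros1 was lower on 3 of 4 dates, with a log2 fold change of -0.18 (95% interval -0.32 to -0.04, limma adjusted p = 0.633). For Mertk the interval of the difference was -0.15 to 0.05, and for Axl -0.09 to 0.09. In the lists, Thbs1 alone was called, and fell by 0.51 (limma adjusted p = 0.000382), from 16470 ± 2494 to 11522 ± 1450 normalized counts.

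Set against the 8 combined controls, as the study grouped them, BMDM-HG-exo gave no call among the members by limma or edgeR, where 0.201% of all genes tested (29 genes) were called. That count was 204 without BMDM-NG-exo library 3 and 1 without BMDM-HG-exo library 1. DESeq2 called Pros1 alone (adjusted p = 0.0497). Unadjusted limma p-values were under 0.05 for Pros1, Mfge8 and Lrp1, and for 10.5% of all genes tested, with log2 fold changes of -0.21, 0.17 and 0.08. Of the lists, C1qc fell by 0.20 (limma adjusted p = 0.0488) and Thbs1 by 0.53 (0.000671).

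The effect of glucose on macrophages was set against the effect of the glucose history of their exosomes by testing the difference between both, (high minus normal glucose) minus (BMDM-HG-exo minus BMDM-NG-exo), over all 20 libraries. The effects differed for 3 members, Mertk, Mfge8 and Dock1, where 4.74% of all genes tested differed. All 3 differences were negative, as were those of 1.47% of all genes. For Mertk the difference was -0.35 (SE 0.0666, limma adjusted p = 0.000563), since its level fell by 0.40 in high glucose and the exosome effect was -0.05. For Mfge8 it was -0.36 (SE 0.0982, limma adjusted p = 0.0220), with effects of -0.27 and 0.08. For Dock1 it was -0.24 (SE 0.0704, limma adjusted p = 0.0332), with effects of -0.27 and -0.02. Only the call of Mertk held with each library left out. That of Mfge8 was lost without 5 of the 16 libraries in the contrast (adjusted p up to 0.0770) and that of Dock1 without 6 (up to 0.0977). For the other 5 members the difference did not pass, and for Pros1 it was 0.01 (95% interval -0.18 to 0.21, limma adjusted p = 0.971). In the lists, Itgb3 (-0.94), Cd300lf (-0.38) and Pparg (-0.33) had negative differences, and Rac2 (0.33), Abca7 (0.41), Calr (0.21), C1qa (0.21), C1qc (0.20) and Cd300lb (0.18) had positive ones. Of the 9 macrophage markers, 6 differed as well, from Mrc1 (-0.32) to Lyz2 (0.42), and their part in the members' differences was not tested.

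**Figure D5:**
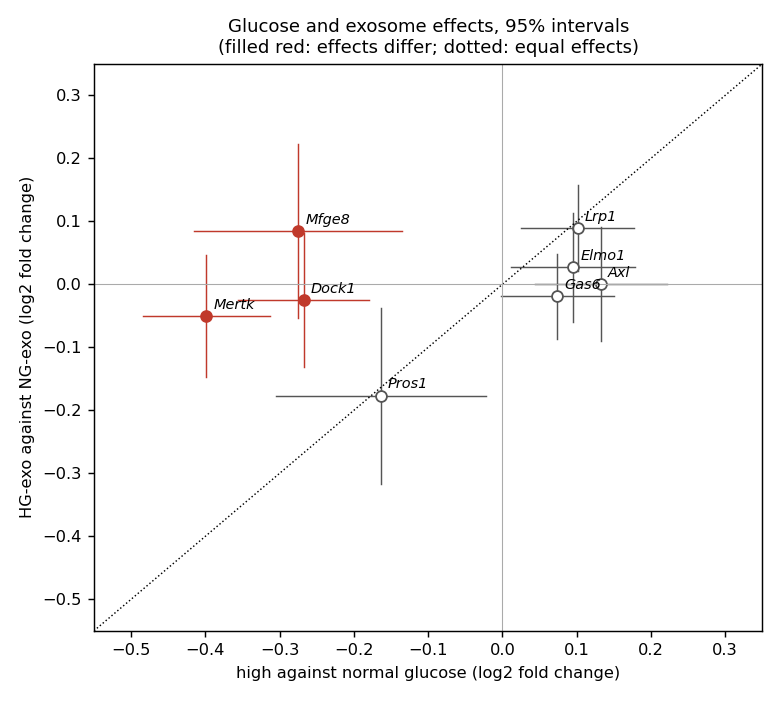
The log2 fold change in high against normal glucose (horizontal axis) is plotted against that of BMDM-HG-exo against BMDM-NG-exo (vertical axis) for the 8 genes, with 95% intervals as lines and a dotted line where both are equal. Mertk, Mfge8 and Dock1, filled red, lie to the left of the dotted line, and Pros1 lies on it.

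Finally, the genes most like each member called in any comparison were listed by Pearson's r of log2 normalized counts over the 20 libraries, against 11717 other genes whose mean reached 50. The libraries share 5 groups, so r mainly reflects differences between groups and is a description. Dock1 had Mertk among its 3 nearest genes (r = 0.87), after Samd4 (0.89) and Fggy (0.87). Mertk was nearest to Arrdc3 (0.92), Plau (0.92) and Arhgef12 (0.915), where Plau is the urokinase gene. Axl was nearest to Ptpn6 (0.90), which encodes the phosphatase SHP-1, to H2-Q4 (0.88), a gene of a multigene family whose reads may be split among copies, and to Pik3ap1 (0.88). Gas6 was nearest to Ctsd (0.92), the gene of the lysosomal protease cathepsin D, Camk1 (0.91) and Creg2 (0.91). Mfge8 was nearest to Kif13b (0.91), Hexa (0.91), a lysosomal hexosaminidase gene, and Fam120a (0.90). Pros1 had weaker neighbours, 1110059G10Rik (0.74), Gm37305 (0.74) and Ufl1 (0.73).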

How the data were processed

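Stranded total RNA libraries depleted of ribosomal cDNA were sequenced by the authors on a NovaSeq. Per the study's methods and the submitters' processing notes, reads were trimmed with cutadapt, mapped to GRCm38 with STAR and counted with featureCounts with read 2 as sense; the annotation used for counting is not given in the sources used here. The deposited signal is a gene count that the authors divided by the DESeq2 median-ratio size factor of the library, so 1 factor scales all genes of a library. Whole reads were recovered from the smallest step of each column (within 0.01 reads) for depth and for the count tests; in PBS library 4 and BMDM-HG-exo library 1 the step is within 1% of 1. Totals ran from 34016445 to 56310712 reads (median 43311931). No libraries of a group were copies (chi-square per degree of freedom 5.23 to 42.3 over 30 pairs). Symbols and exons came from GENCODE M21, matched for 14421 of 14456 genes, and promoters from RefSeq.

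Log2 of the normalized count plus 1 was fitted with limma 3.58.1 in R 4.3.3 (eBayes with trend, two-sided) for genes with a mean of at least 10, with Benjamini-Hochberg adjustment over all of them. The glucose fit used 8 libraries, the exosome fits 12 and the difference of effects 20. The exosome libraries pair by the dates in their labels; deviations from group means correlated at 0.012 on average within a date (12 pairs) and at -0.004 between dates. The date was a block in an alternative only. Other alternatives were the pseudocount, the filter, TMM and quantile scaling, no trend, edgeR 4.0.16, DESeq2 1.42.0, other fold limits, 1 fit over all libraries, and each library left out. Fits were tested on simulated data, with planted changes larger than any called for a member (at most 0.40 on the log2 scale). That test does not cover changes as small as those of the members. Python 3.11.15, pandas 2.3.3, numpy 2.4.6 and matplotlib 3.10.9 made the tables and figures.

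The members and lists were chosen with earlier results of these data known. Named were the members, list genes that were called and some that were not, paralogs of Elmo1 and Dock1, and the 3 genes most like each called member. The study's small RNA, human cell and mouse tissue data were not used here.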

Additional observations from a re-analysis of the deposited data

Results flagged for a closer look

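Among 40 groups of 4 libraries, 1 per member and condition, a single library stood apart from the other three in 2 by Dixon's test, which compares the gap to the nearest library with the whole range and by chance singles out about 1 group in 20. For Gas6, the highest PBS library, at 16700 normalized counts, had a ratio of 0.875, and both exosome calls of Gas6 held without it. For Pros1, the lowest library in normal glucose, at 1074 normalized counts, had a ratio of 0.931, and without it Pros1 was called in high glucose (log2 fold change -0.23, limma adjusted p = 0.0293).

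The glucose effect and the exosome effect differed by a test of the difference itself for 3 members. The log2 difference was -0.35 for Mertk (limma adjusted p = 0.000563), -0.36 for Mfge8 (0.0220) and -0.24 for Dock1 (0.0332). The glucose and exosome libraries belong to separate experiments, and the glucose level of the medium in the latter is not given in the sources used here, so exposure and experiment cannot be told apart in any comparison of levels across them.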

How the results depend on the processing

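Over the settings other than leaving out a library, 555 of 568 values of single members kept their side of the threshold. Of the rest, 12 lost and 1 gained a call, and no value called in either fit changed direction. With 1 library left out, 450 of 480 kept their side, 26 lost and 4 gained a call, again with no called value reversed. Values called in neither fit could change sign. The difference of effects of Pros1, which was 0.01, ran down to -0.08 over the settings. Without a trend of the variance, the members called were 2 in high glucose (Mertk and Dock1), 0 with BMDM-NG-exo against PBS, 0 with BMDM-HG-exo against PBS and 1 for the difference of effects (Mertk); DESeq2 called 1 member (Pros1) for BMDM-HG-exo against the combined controls, and the cause was not tested. Leaving out 1 library at a time, the members called were 3 to 5 in high glucose, 2 to 3 with BMDM-NG-exo against PBS, 2 to 5 with BMDM-HG-exo against PBS and 1 to 3 for the difference of effects, and 0 in the other comparisons. Over all genes, the same fits called 1370 to 2027 in high glucose and 292 to 428 with BMDM-NG-exo against PBS. They called 550 to 759 with BMDM-HG-exo against PBS and 487 to 755 for the difference of effects. Gas6 with BMDM-HG-exo fell just under the fold limit without PBS library 2 (log2 fold change 0.15 after rounding). Axl in high glucose was not called after quantile scaling (0.09, adjusted p = 0.239), without the trend (adjusted p = 0.252) or under a fold limit of 0.15.

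With the replicate block, the members called were 4 in high glucose, 2 with BMDM-NG-exo against PBS, 4 with BMDM-HG-exo against PBS, 3 for the difference of effects and 0 elsewhere, and no call changed; in the glucose fit, where only 2 numbers occur in both groups, the shared number is no more than a number, with a mean correlation of deviations of 0.007 over 2 pairs. Over all genes, calls in high glucose were 1914 and between 654 (without the trend) and 2162 over the settings, with 788 under the replicate block. For the difference of effects they were 685, between 296 (replicate block) and 899, with 324 without the trend. BMDM-HG-exo against PBS gave 698 and between 295 (without the trend) and 833, and BMDM-NG-exo against PBS gave 432 and between 95 (without the trend) and 512. BMDM-HG-exo against BMDM-NG-exo gave 2, between 0 and 25 over the settings and between 1 and 7 with a library left out. Against the combined controls it gave 29, between 1 and 144 over the settings and between 1 and 204 with a library left out. The fewest reads behind a member's value were 873, where counting error was 3.38%.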

Other observations

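The control groups of the experiments, normal glucose and PBS, belong to separate experiments, the glucose level of the PBS medium is not given in the sources used here, and no test was made between them. Their levels differed for several members: Mertk ranged from 6409 to 6895 normalized counts in normal glucose and from 5254 to 6088 with PBS, Dock1 from 4341 to 4758 and from 3475 to 4303, and Lrp1 from 103567 to 122585 and from 124114 to 134540. For these 3 genes the PBS libraries did not overlap those in normal glucose. Axl, at 5505 to 6401 in normal glucose and 6471 to 6968 with PBS, was separated as well. The ranges of Gas6, Pros1, Mfge8 and Elmo1 overlapped. The share of all genes separated in this way was not counted. Mertk in high glucose, at 4745 to 5314, reached into the PBS range. The summed macrophage markers with PBS, 807371 to 854460 normalized counts, lay within or just below the range in high glucose.

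The ratio of Gas6 to Pros1 per exonic kb, the ligands of the TAM receptors, was 19.9 ± 0.602 with PBS, 23.8 ± 1.97 with BMDM-NG-exo and 26.5 ± 2.36 with BMDM-HG-exo (SD, n = 4 each), and every exosome library lay above every PBS library. In the glucose experiment it was 19.3 ± 2.34 in normal and 22.6 ± 1.59 in high glucose, in overlapping ranges. The ratio was chosen after its values were seen and was not tested.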
